A study of Mus musculus with 2 samples.

Results

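Mature B cells of mouse visceral adipose tissue were described in 2 single-cell libraries of CD45+ cells, and 868 of the 25198 cells that passed the filters on cells belonged to them. B cells carry an antibody on the surface as their antigen receptor, coupled to the signalling chains CD79A and CD79B, and CD20, the product of Ms4a1, marks them from a late precursor step until they turn into plasma cells. A mature cell that has not met antigen makes IgM and IgD from the same heavy chain transcript by alternative splicing, and cells that respond to antigen, switch class or belong to the innate-like B-1 and marginal zone lineages keep less IgD. B-1 cells are long known from the body cavities and their fat-associated lymphoid clusters, and follicular B cells recirculate through blood and lymphoid organs.

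Both libraries came from wildtype C57BL/6 mice at an age of 15 weeks, with drinking water that was either plain (normal water, NW) or held antibiotics (ABX), and the study's antibiotic mixture for drinking water combined ampicillin, vancomycin, streptomycin and colistin. The tissue was visceral fat (labelled eWAT), digested at 37 °C before CD45+ cells were enriched on magnetic beads. Each cell was also stained with antibodies that carry sequence tags, which were counted beside the transcripts. There was 1 library per condition, and the number of mice behind each is not given in the sources used here. Differences between the conditions and differences between the libraries therefore cannot be told apart, no test between conditions was possible, and the intervals given below cover counting error only.

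A cell was called a mature B cell on its own counts of unique molecular identifiers (UMIs, distinct captured transcripts). It had at least 1 UMI of Ms4a1 and at least 2 of Cd79a, none of Vpreb1 and Igll1 (the surrogate light chain of precursors), fewer than 5 of Mzb1 plus Derl3 (secretory genes of plasma cells), none of Cd3e and Cd3d (T cells) and fewer than 5 of the macrophage genes C1qa, C1qb and C1qc together. These measured values chose the cells, so the levels of these genes are no finding. Ms4a1 lies at chr19:11249675-11266241 and Cd79a at chr7:24897381-24902197 in GRCm38.

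The label held for genes that the rule did not use. Cd79b, the partner of Cd79a, had a UMI in 92.0% of members in NW and 93.1% in ABX, against 3.27% and 3.68% of T cells. Pax5, the transcription factor that maintains B cell identity, was found in 81.2% and 76.2% of members and in 0.456% and 0.694% of T cells. Cd22, an inhibitory receptor, was detected in 81.7% and 80.6%, and Fcmr, the receptor for the Fc part of IgM, in 74.6% and 72.2%. T cells here are cells with at least 2 Cd3e plus Cd3d UMIs, and their median depth of 3518 UMIs in NW and 3316 in ABX was near that of the members, 3123 and 3343. Other B lineage cells shared these genes, with Cd79b in 92.5% and 91.7% of B cell precursors and 74.0% and 86.4% of plasma cells, so the label separates the members from T cells and not from the rest of the lineage. Ighm, the most abundant heavy chain, had a UMI in 67.8% of T cells in NW and 70.0% in ABX, so its presence in a cell was no sign of expression there.

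The edges of the rule were not sharp. Members with a single Ms4a1 UMI numbered 38 in NW and 94 in ABX, and 49 and 96 cells met every other condition without an Ms4a1 UMI. Just inside, Cd79b was found in 89.5% and 91.5% of cells, and just outside in 79.6% and 71.9%. The limit on Mzb1 and Derl3 removed more. In NW 58 cells and in ABX 175 cells failed that condition alone, with median depths of 7325 and 7496 UMIs, and Bhlhe41 was found in 50% and 50.9% of them, Fcer2a in 5.17% and 6.86% and Ighd in 46.6% and 41.7%. The rule therefore left out cells that lacked Ighd and held Bhlhe41 more often than the members did. At 3 or 4 UMIs of these secretory genes, inside the limit, Bhlhe41 was found in 44.2% of 43 cells and 46.9% of 128, and at 5 or 6, outside, in 44.0% of 25 and 47.0% of 66.

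No barcode was shared between the members of both libraries, although 371 of all barcodes were. The passing cells held a median of 5092 UMIs in NW and 3845.5 in ABX, so the ABX library was shallower as a whole while its mature B cells were not. Doublets were kept. Of the members, 43 in NW (20.2%) and 74 in ABX (11.3%) held at least 10 UMIs of another lineage's markers or over 3 times the median depth. These possible doublets were not even over the Ighd classes described below, at 5.1%, 35.2% and 25% of Ighd-high, Ighd-low and Ighd-zero cells in NW and 2.55%, 16% and 22.4% in ABX. Both limits are raw counts that deeper cells reach more easily, and the classes differed in depth. Per 10000 gene UMIs the macrophage marker list had medians of 13.9, 15.9 and 12.8 in NW and 10.7, 10.7 and 11.4 in ABX. A part of depth in the uneven shares was not tested.

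Mature B cells made up a larger part of the ABX library. There were 213 among 12474 passing cells in NW, or 1.71% (95% exact binomial interval 1.49% to 1.95%), and 655 among 12724 in ABX, or 5.15% (4.77% to 5.55%). The ratio was 3.01 (2.58 to 3.54, exact conditional Poisson interval). There were 1315 T cells beside the 213 members of NW and 1441 beside the 655 of ABX. Of members and T cells together, members made up 13.9% in NW and 31.3% in ABX. The members are a large part of that total, so the ratio of these shares, 2.24, is not comparable with 3.01. The T cells themselves were 10.5% and 11.3% of passing cells. Macrophages, defined by at least 10 C1q UMIs and none of Ms4a1, Cd3e and Cd3d, were 44.8% and 35.2%.

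The ratio was smaller for precursors and plasma cells. Cells with Vpreb1 or Igll1 and at least 2 Cd79a UMIs numbered 40 in NW and 24 in ABX, a ratio of shares of 0.588 (0.339 to 1.00). Cells with at least 5 Mzb1 plus Derl3 and at least 5 Jchain UMIs, which is the count pattern of plasma cells, were 169 and 257, a ratio of 1.49 (1.22 to 1.82). The cells that failed only the limit on Mzb1 and Derl3 went with the members, and with them included the share was 2.17% in NW and 6.52% in ABX. Among all cells with at least 2 Cd79a UMIs, members were 35.3% of 603 in NW and 48.5% of 1350 in ABX.

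**Figure D1:**
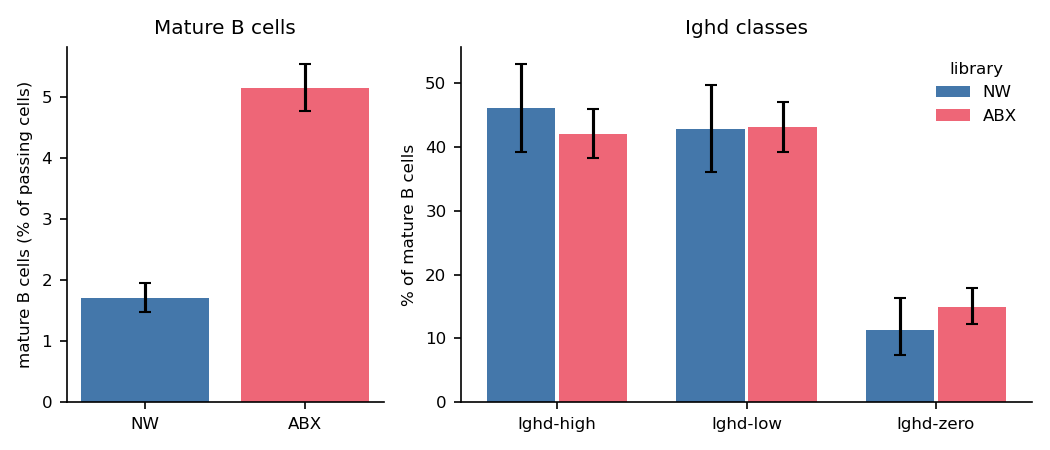
Left, mature B cells as a percentage of passing cells in the NW and ABX libraries; right, Ighd-high, Ighd-low and Ighd-zero cells as a percentage of mature B cells. Bars are 1 library each and error bars are 95% exact binomial intervals; the share of mature B cells was 1.71% in NW and 5.15% in ABX, whereas the intervals of each Ighd class overlapped.

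Ighd, the IgD heavy chain constant gene at chr12:113406604-113416324, was used to divide the members. Its count had a median of 4 UMIs per cell in both libraries and reached 24 in NW and 28 in ABX. Cells at or above 15.7 Ighd UMIs per 10000 gene UMIs, the median of Ighd-positive members, were called Ighd-high, the other positive cells Ighd-low, and cells without an Ighd UMI Ighd-zero. In NW these were 98, 91 and 24 cells, and in ABX 275, 282 and 98. As shares of the members, Ighd-high cells were 46.0% (39.2% to 53.0%) in NW and 42.0% (38.2% to 45.9%) in ABX, and Ighd-zero cells 11.3% (7.35% to 16.3%) and 15.0% (12.3% to 17.9%). The share of Ighd-zero cells was 1.33 times as large in ABX, with an interval of 0.843 to 2.17 that includes equal shares. These shares depend on the limit on Mzb1 and Derl3: without it, an alternative chosen after seeing the data, Ighd-zero cells were 20.3% of 271 cells in NW and 24.1% of 830 in ABX, and Ighd-high cells 36.9% and 33.5%. Since all 3 classes were more frequent among the passing cells of ABX, by 2.75 times (2.18 to 3.5) for Ighd-high, 3.04 times (2.39 to 3.89) for Ighd-low and 4.0 times (2.54 to 6.54) for Ighd-zero cells, the larger number of members in ABX was spread over the classes.

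Cells without Ighd were the deepest, not the shallowest. Median gene UMIs were 2724 in Ighd-high, 4068 in Ighd-low and 4634.5 in Ighd-zero cells of NW, and 2585, 4302.5 and 5553 in ABX. Ighm, which lies next to Ighd on chromosome 12, ran the opposite way to Ighd, with medians of 14, 25 and 40 UMIs per cell in NW and 12, 22 and 40.5 in ABX. As counts per 1000000 gene UMIs (CPM), Ighm was at 5193 in Ighd-high and 8073 in Ighd-zero cells of NW, and 4930 and 9987 in ABX. As background, Ighd was found in 1.98% and 2.71% of T cells and in 8.21% and 6.59% of macrophages, against 88.7% and 85.0% of members. The macrophages had median depths of 5949 and 4486 UMIs, and both background sets left out cells with Ms4a1. Depth still set part of the division: with every cell thinned to 1000 UMIs, the expected share without Ighd was 34.0% in NW and 37.0% in ABX.

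**Figure D2:**
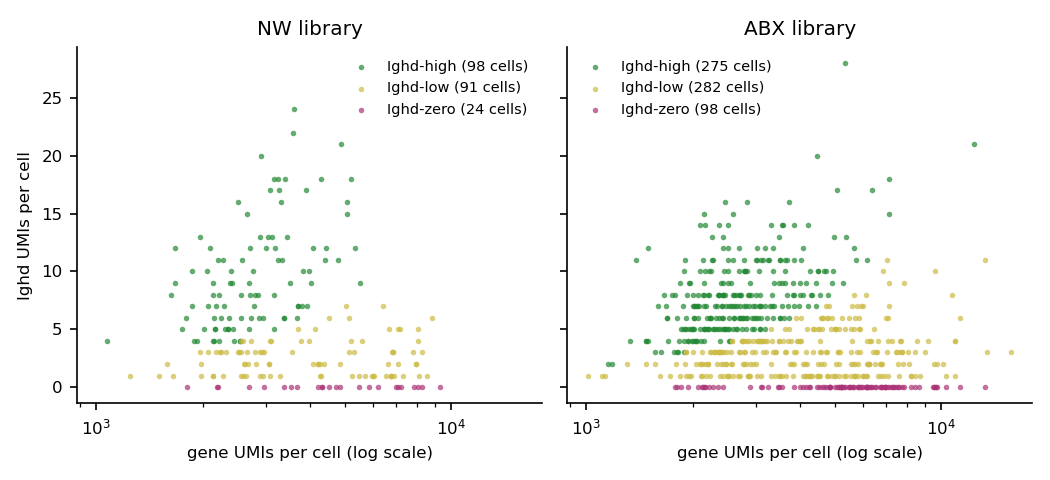
Ighd UMIs per cell against gene UMIs per cell on a log axis, for the mature B cells of each library; every point is a cell, coloured by its Ighd class. Ighd-zero cells, at the bottom, lay mostly to the right, with median depths of 4634.5 in NW and 5553 in ABX against 2724 and 2585 in Ighd-high cells.

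Beyond Ighd, the ends of this division differed in many genes. Of 2945 genes with at least 100 UMIs, 240 were at least 1.5-fold higher in Ighd-high than in Ighd-zero cells in both libraries (8.15%) and 103 at least 1.5-fold lower (3.5%), while 25 lay beyond 1.5-fold in opposite directions. Only 138 of the 240 and 70 of the 103 had counting intervals that excluded equal levels in both libraries. Without possible doublets, 149 of the 240 and 64 of the 103 were called again, with fewer genes tested. Scaled without immunoglobulin, mitochondrial and ribosomal protein genes, the counts were 174 and 127. The classes were cut on a gene measured in the same cells, so these values are a description of the 2 ends and carry no test. The minimum of 100 UMIs counted both ends together, and the Ighd-high cells held more gene UMIs than the Ighd-zero cells. The totals were 286922 against 121640 in NW and 785215 against 549298 in ABX. Genes higher in Ighd-high cells therefore reached the minimum more easily. The median log2 ratio over all genes was 0.14 in NW and 0.12 in ABX. Levels below are CPM over the summed cells of a class.

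Genes of follicular and naive B cells were higher in Ighd-high cells. Of 12 listed genes 11 had enough UMIs, and 6 of these were higher and none lower, beside 8.15% and 3.5% of all tested genes. Among the 6 were Fcer2a, Satb1, Cr2, Ccr7 and Fcmr, and the list had median log2 ratios of 1.23 in NW and 0.65 in ABX. Fcer2a encodes CD23, the low-affinity IgE receptor of follicular B cells. It was at 676, 169 and 16.4 CPM in Ighd-high, Ighd-low and Ighd-zero cells of NW and at 553, 164 and 74.6 in ABX. Its log2 ratios of high over zero were 5.36 (3.49 to 8.42, on 194 against 2 UMIs) and 2.89 (2.42 to 3.39). Both libraries gave the same order of classes for Fcer2a, and its ratio was the larger in NW, where the Ighd-zero class was only 24 cells. Fcer2a, Satb1, Cr2 and Ccr7 reached the minimum of UMIs through the Ighd-high cells, so their direction was in part set by that minimum. Fcmr, with 236 UMIs in the Ighd-zero cells of ABX, reached it in either class.

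Cr2, the complement receptor CD21 of follicular and marginal zone B cells, was at 394, 184 and 57.6 CPM in NW and 466, 230 and 83.7 in ABX. Satb1, a chromatin organizer of lymphocytes, was at 356, 147 and 24.7 in NW and 241, 84.9 and 31.0 in ABX. The order high, low, zero held for both genes in both libraries. Ccr7, the chemokine receptor that guides lymphocytes into the T cell zone, gave log2 ratios of 2.47 (1.55 to 3.57) and 1.47 (0.94 to 2.04). Other genes of follicular cells did not separate the ends: Cxcr5, which directs B cells into follicles, gave 0.32 and -0.18, S1pr1, the exit receptor, 0.12 and 0.03, and Klf2, a factor of quiescent recirculating lymphocytes, was slightly lower in Ighd-high cells, at -0.46 and -0.43.

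The largest differences in this direction after Ighd itself included Zfp318, which is required for the alternative splicing that yields IgD. Its levels were 436, 211 and 65.8 CPM in Ighd-high, Ighd-low and Ighd-zero cells of NW and 399, 202 and 61.9 in ABX, with log2 ratios of 2.73 (1.70 to 3.97) and 2.69 (2.17 to 3.24). Zfp318 thus had the same order of classes as Ighd. Bach2, a repressor of plasma cell differentiation, was at 296 against 57.6 CPM in NW and 332 against 69.2 in ABX. Neurl3, Lrrk2, Zfp608 and Pxdc1 completed the set. Zfp608 and Pxdc1 had 43 and 29 UMIs in the Ighd-high cells and none in the 24 Ighd-zero cells of NW. Their log2 ratios in ABX were 2.41 and 3.69. Zfp318, Bach2, Neurl3, Lrrk2, Zfp608 and Pxdc1 reached the minimum of UMIs through the Ighd-high cells, so their direction was in part set by that minimum. Icosl, the ligand of the T cell costimulator ICOS, gave 2.60 and 1.65, Cd72, an inhibitory B cell receptor, 1.76 and 1.96, and Pax5 0.87 and 0.70.

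B-1 genes ran the other way. Of 16 listed genes only 5 reached 100 UMIs over both ends, Ahnak, Bhlhe41, Lgals1, Ptprj and S100a6, and these were lower in Ighd-high cells. Over all tested genes 3.5% were lower. Ahnak, Ptprj and S100a6 had over 100 UMIs in Ighd-high cells alone, whereas Bhlhe41 and Lgals1 reached that number through the Ighd-zero cells, so their direction was in part set by the minimum. Bhlhe41 is a transcription factor needed for B-1a cells. It was at 10.5, 109 and 123 CPM in Ighd-high, Ighd-low and Ighd-zero cells of NW and at 15.3, 97.0 and 184 in ABX. The UMI counts behind the ends were 3 against 15 in NW and 12 against 101 in ABX, and the log2 ratios were -3.56 (-5.99 to -1.74) and -3.59 (-4.59 to -2.72). S100a6, a calcium-binding protein, went from 167 to 1891 CPM between the ends in NW and from 136 to 1232 in ABX. The size of these differences depended on how the high end was drawn: with Ighd-high taken as 5 or more Ighd UMIs, Bhlhe41 was at -2.37 and -2.24 and S100a6 at -2.39 and -2.08, in place of -3.50 and -3.18. The genes under 100 UMIs carried the same direction where they had counts. Zbtb32, a zinc finger gene of B-1 and memory B cells, had 1 UMI in Ighd-high, 20 in Ighd-low and 17 in Ighd-zero cells of NW and 1, 76 and 61 in ABX, with log2 ratios of -5.33 (-10.71 to -2.65) and -6.45 (-11.77 to -3.91). Fcrl5, Itgam (CD11b), Plscr1, Cd9 and Anxa2 had ratios between -3.41 and -2.14, with intervals below 0 in both libraries. Spn, which encodes CD43, and Il5ra, the interleukin-5 receptor, were lower by less, at -1.07 and -1.24 in NW, with intervals that include 0, and at -1.66 and -1.38 in ABX. Cd5, which defines B-1a cells, had few UMIs, with 5 among all members of NW and 14 in ABX, and none in Ighd-high cells. Ighd-zero cells held 1 in NW, which gave no ratio. In ABX they held 6, and the log2 ratio there was a bound of -1.52, with an interval below -0.75.

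**Figure D3:**
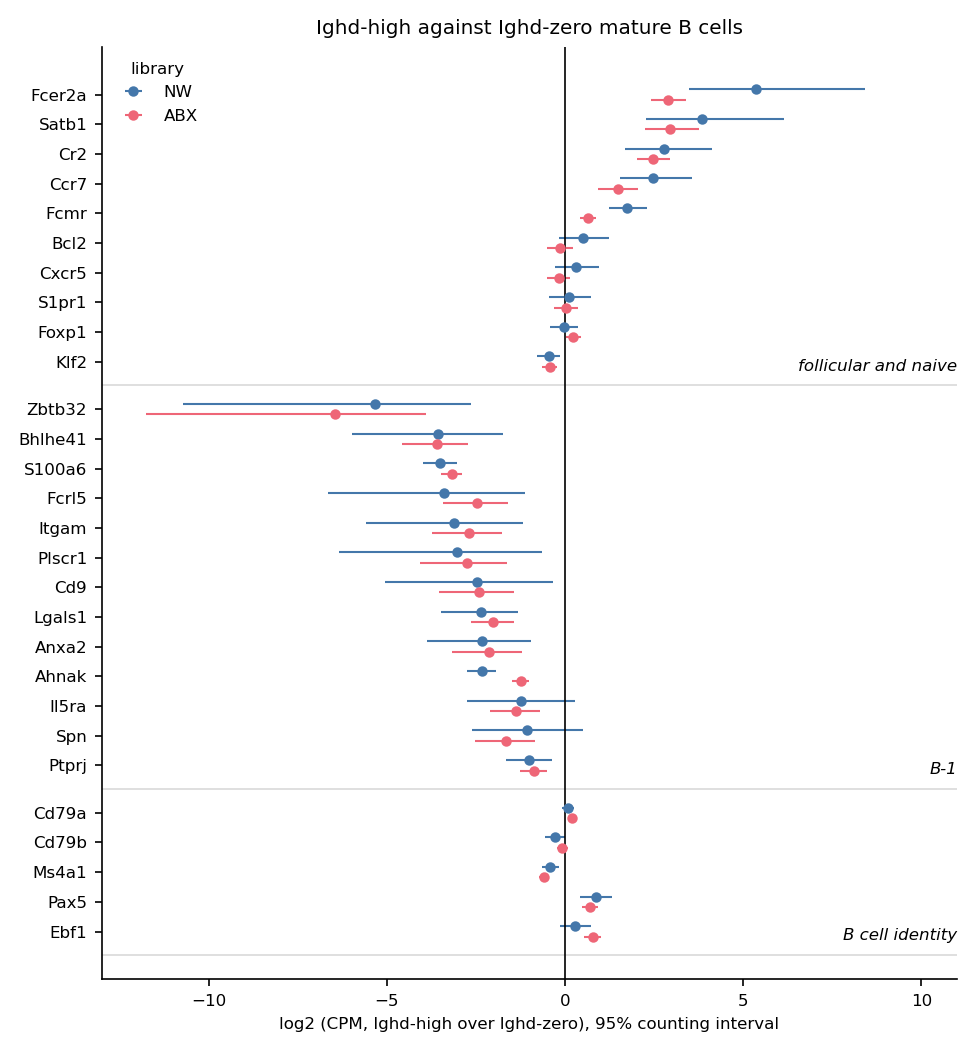
Log2 ratio of CPM in Ighd-high over Ighd-zero mature B cells in NW (blue) and ABX (red), with 95% counting intervals, for genes of 3 lists. Fcer2a, Satb1, Cr2, Ccr7 and Fcmr lay right of 0 in both libraries, the B-1 genes left of 0, and Cd79a and Cd79b close to 0; Il5ra and Spn had intervals across 0 in NW.

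The shares of cells with these transcripts had the same order as the levels. Fcer2a had a UMI in 69.4%, 34.1% and 8.33% of Ighd-high, Ighd-low and Ighd-zero cells in NW and 66.9%, 33.0% and 17.3% in ABX. Bhlhe41 had a UMI in 3.06%, 25.3% and 33.3% in NW and 3.64%, 25.2% and 52.0% in ABX. At an equal depth of 1000 UMIs, Bhlhe41 was expected in 0.987%, 6.95% and 8.95% of cells in NW and 1.21%, 6.87% and 15.0% in ABX, in the same order. Thinning left the division into classes as it was, so a part of depth in that division was not tested. In T cells Fcer2a was found in 0.228% and 0.416%, and Bhlhe41 in 0.532% and 0.625%. In macrophages, which were deeper, Fcer2a was found in 0.215% and 0.246%, but Bhlhe41 in 10.2% and 9.92%, above its share of Ighd-high cells.

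Fewer members had UMIs of both pairs, Fcer2a or Cr2 and Bhlhe41 or Zbtb32, than of either pair alone. These pairs were chosen after their values were seen. The overlap that their shares and the depth of the cells would give was not computed. In NW 122 members had a UMI of the first pair only, 36 of the second only, 10 of both and 45 of neither, and in ABX 346, 113, 53 and 143. Cells with the second pair only were 2.04% of Ighd-high and 45.8% of Ighd-zero cells in NW, and 0.364% and 45.9% in ABX. As a share of all members they were 16.9% (12.1% to 22.6%) in NW and 17.3% (14.4% to 20.4%) in ABX, close to each other. The cells with the first pair only were 57.3% (50.3% to 64.0%) and 52.8% (48.9% to 56.7%). Cells with the second pair only were deeper, with medians of 6464.5 and 6177 UMIs against 2748.5 and 2778.5. Their Ighm medians were 48 and 46 against 14 and 13 UMIs, as raw counts that were not scaled to depth. Ighd-zero cells were mixed in these genes: 4 of 24 in NW and 18 of 98 in ABX had the first pair alone, and 7 and 20 had neither. In these cells the first pair was more often Cr2, with a UMI in 5 and 24 cells, than Fcer2a, in 2 and 17.

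Other genes lower in Ighd-high cells included Plac8, a gene of marginal zone and B-1 cells, with log2 ratios of -1.97 and -2.27, S100a4, at -3.07 and -2.0, Csf2rb, the common receptor chain for interleukin-3, interleukin-5 and GM-CSF, at -2.54 and -2.41, and Itgb1, the integrin beta 1 chain, at -1.68 and -2.63. Zcwpw1, Tbc1d9 and Ms4a6c also belonged to them, with ratios from -3.04 to -2.09. S100a4, Csf2rb, Zcwpw1, Tbc1d9 and Ms4a6c reached 100 UMIs through the Ighd-zero cells, so their direction was in part set by the minimum. Zbtb20 and Zeb2, factors of memory and age-associated B cells, were both lower in Ighd-high cells, by -1.38 and -1.08 and by -1.79 and -0.88. Of the marginal zone list, 5 of 11 genes had enough UMIs, Cr2 was higher and Mzb1 and Plac8 lower in Ighd-high cells. The rule capped Mzb1, so its difference between the ends, -0.88 and -0.72, is one within that cap.

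The lists of general B cell genes were too short to be told from the background of 8.15% higher and 3.5% lower. None of the 14 tested genes of B cell receptor signalling lay beyond 1.5-fold in both libraries, and of 14 identity genes 3 did, Bach2, Cd72 and Pax5. Cd79a gave log2 ratios of 0.08 and 0.19 and Cd79b -0.29 and -0.08. Of 10 MHC class II genes, H2-Oa and H2-Ob, which encode the modulator H2-O of peptide loading, were higher in Ighd-high cells, at 0.91 and 1.12 (H2-Oa, with an interval across 0 in NW) and at 1.38 and 1.11 (H2-Ob), and H2-Aa, a chain of the presenting molecule, differed little, at 0.43 and 0.22. None of 86 ribosomal protein genes and none of 12 mitochondrial genes passed 1.5-fold in both libraries, and the macrophage marker list had 0 of 6.

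The antibody tags, which the rule did not use, gave a protein readout of CD44, an adhesion receptor that is raised on antigen-experienced lymphocytes. It had medians of 61, 101 and 139 UMIs per cell in Ighd-high, Ighd-low and Ighd-zero cells of NW and of 64, 128.5 and 138 in ABX. The quartiles of the Ighd-high cells were 35 and 106 in NW and 39.5 and 106 in ABX, and those of the Ighd-zero cells 64.5 and 288 and 77.5 and 243.5, so single cells of the classes overlapped widely. Per 1000 antibody UMIs of the cell, which sets each cell to its own total of antibody UMIs, CD44 was at 397, 602 and 674 in NW and at 458, 607 and 680 in ABX, in the same order.

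CD1d, a presenting molecule for lipids that is high on marginal zone B cells, had raw medians of 17, 15 and 12 in NW and 12, 15 and 11.5 in ABX, with no common order. Per 1000 antibody UMIs of the cell, CD1d fell over the classes in both libraries. It was at 97.95, 78.9 and 51.2 in NW and at 85.5, 69.6 and 53.0 in ABX. On this scale the antibody NK-1.1 fell too, from 119.7 to 70.5 in NW and from 90.9 to 61.5 in ABX. Over all members the raw CD1d medians of 15 and 13 were above those of T cells, 5 and 4, and near those of macrophages, 13 and 12. CD69 had medians of 4 to 5.5 over the classes, and CD25 of 4.5 to 8. Among the antibodies against T and NK cell proteins, TCRb had medians of 10 and 9 in members against 27 and 20 in T cells, CD4 of 1 and 1 against 13 and 3, CD3 of 5 and 4 against 9 and 7, CD8b of 6 and 6 against 9 and 6, and NK-1.1 of 17 and 13 against 18 and 14. Cells with Bhlhe41 or Zbtb32 and without Fcer2a or Cr2 had CD44 medians of 149 and 158, against 64.5 and 75 in the cells with the opposite pattern.

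**Figure D4:**
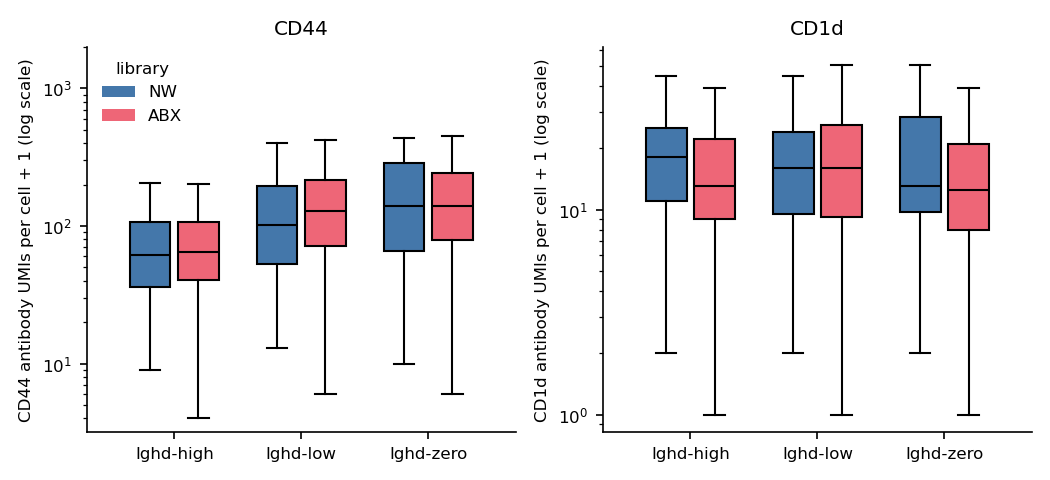
CD44 and CD1d antibody UMIs per cell plus 1, on log axes, in the 3 Ighd classes of each library; boxes span the quartiles around the median, whiskers reach the farthest cell within 1.5 box lengths, and farther cells are not drawn. Median CD44 went from 61 to 139 in NW and from 64 to 138 in ABX between Ighd-high and Ighd-zero cells, while median CD1d went from 17 to 12 and from 12 to 11.5.

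Most mature B cells, Ighd-zero cells included, were unswitched. By the constant gene with most UMIs, and at least 2, 187 of 213 members of NW were Ighm cells (87.8%) and 593 of 655 of ABX (90.5%), and a further 23 and 51 were Ighd cells. Only 2 members of NW (0.939%, 0.114% to 3.35%) and 11 of ABX (1.68%, 0.841% to 2.99%) were led by an Ighg or Igha gene, and these were 1 Ighg3 and 1 Igha cell in NW and 5 Ighg1, 3 Ighg2b, 1 Ighg3 and 2 Igha cells in ABX. As background, the same rule gave 0.380% and 0.347% of T cells and 0.734% and 0.246% of macrophages. The interval of the members in NW includes the NW background shares. Both switched cells of NW and 9 of the 11 of ABX were Ighd-zero, which came to 2 of 24 and 9 of 98 such cells, and no Ighd-high cell was switched in either library. Ighm led in 22 of 24 and 89 of 98 Ighd-zero cells. Free Ighm was abundant, and by the same rule Ighm also led in 34.2% and 42.0% of T cells. The Ighm medians of 40 and 40.5 UMIs in Ighd-zero cells still stood far above the T cell median of 1.

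Lambda light chains led over kappa in 20 members of NW, or 9.39% (5.83% to 14.1%), and in 45 of ABX, or 6.87% (5.06% to 9.09%). By class the shares were 6.12%, 11% and 16.7% of Ighd-high, Ighd-low and Ighd-zero cells in NW and 4.0%, 8.51% and 10.2% in ABX. The intervals of the Ighd-high and Ighd-zero shares overlapped in both libraries, at 2.28% to 12.9% against 4.74% to 37.4% and at 2.01% to 7.04% against 5.0% to 18.0%. Iglc1, a lambda constant gene, was lower in Ighd-high cells at log2 ratios of -1.22 and -1.23, and Iglc3 was not, at -0.11 and -0.21; the lambda genes are close copies, and how the pipeline divided reads between them is not known.

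Between the conditions, the transcripts of mature B cells differed little. Over both libraries 5086 genes reached 100 UMIs, of which 121 (2.38%) were at least 1.5-fold higher in ABX and 190 (3.74%) at least 1.5-fold lower, around a median log2 ratio of -0.05. With the same other scaling the counts were 155 and 149. The lists of 14 tested identity genes, 14 genes of B cell receptor signalling, 10 MHC class II genes, 13 B-1 genes and 8 marginal zone genes held none of them, which at this background is no result about such short lists. Fcer2a was at 326 CPM in NW and 261 in ABX, and Bhlhe41 at 76.5 and 90.8.

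Ccr7 was the leading gene on the lower side that was spread over many cells. Its level was 274 CPM in NW and 112 in ABX, a log2 ratio of -1.30 (-1.55 to -1.04), and 46.5% and 26.6% of members had a UMI, or 25.3% and 12% at an equal depth of 1000 UMIs. It was lower within Ighd-high cells too, at -1.33, and by less in Ighd-zero cells, at -0.33 on 10 and 36 UMIs. In T cells Ccr7 was higher in ABX, at 0.74, and in macrophages it was lower, at -2.15 on 280 and 38 UMIs. Satb1 was the other follicular gene of 11 tested that was lower, at -0.76 (-1.03 to -0.47), against 0.56 in T cells and 0.75 in macrophages. Over all tested genes 3.74% were lower, and the follicular list was not tested as a set. Cxcr4, the receptor for CXCL12, followed at -0.65 (-0.78 to -0.51).

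Of 11 tested activation genes 4 were lower in ABX, Cd69, Egr1, Junb and Tnfaip3, and Il4i1 was higher. Over all 5086 tested genes 3.74% were lower and 2.38% higher, and the list was not tested as a set. Egr1, an early response factor, was at 169 and 76.9 CPM (-1.14, -1.46 to -0.81), Junb at 598 and 367 (-0.71, -0.86 to -0.55), and Tnfaip3, a brake on NF-kappaB, at 86.3 and 43.7 (-0.98, -1.42 to -0.53). Egr1 rested on few cells: 58 of its 137 UMIs in NW lay in the 24 Ighd-zero cells, the ratio was -2.86 there and -0.55 (-1.20 to 0.13) within Ighd-high cells, and it was -0.54 with at most 10% mitochondrial UMIs. Within Ighd-high cells Junb gave -0.63 and Tnfaip3 -0.98. In T cells the 3 genes gave -0.69, -0.82 and -1.04, and in macrophages -0.62, -0.07 and 0.28. Egr1 and Junb are also genes that tissue digestion induces, and of 14 tested genes of that list these 2 were lower and none higher, with a median of -0.23; Jun and Fos, which belong to the same response, gave -0.03 and 0.09. A part of digestion in these values was not tested. Plk2 and Pmaip1, which respond to stress, were lower at -1.24 and -1.17, and Zbtb43 and Atp1b1 at -1.24 and -1.89. Plk2 and Atp1b1 were uneven. For Plk2, 1 cell held 35.6% of its 59 UMIs in NW, and its ratio was -0.81 without the richest cell of each library, -0.76 (-1.66 to 0.17) within Ighd-high cells and -2.50 within Ighd-zero cells. For Atp1b1, 1 cell held 23.8% of its 84 UMIs in NW, and within Ighd-high cells the ratio was -0.31.

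Ccl9, F13a1 and C1qa, genes of myeloid cells, were lower in the members of ABX at -1.13, -1.10 and -1.04; the rule capped the C1q genes in both libraries, so the value of C1qa is one within that cap. These transcripts moved the same way in T cells, at -0.41, -0.78 and -0.59, and the macrophage marker list as a whole had a median of 14.3 UMIs per 10000 in the members of NW and 10.8 in ABX, where macrophages were also fewer. How much of this was free macrophage RNA was not tested.

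**Figure D5:**
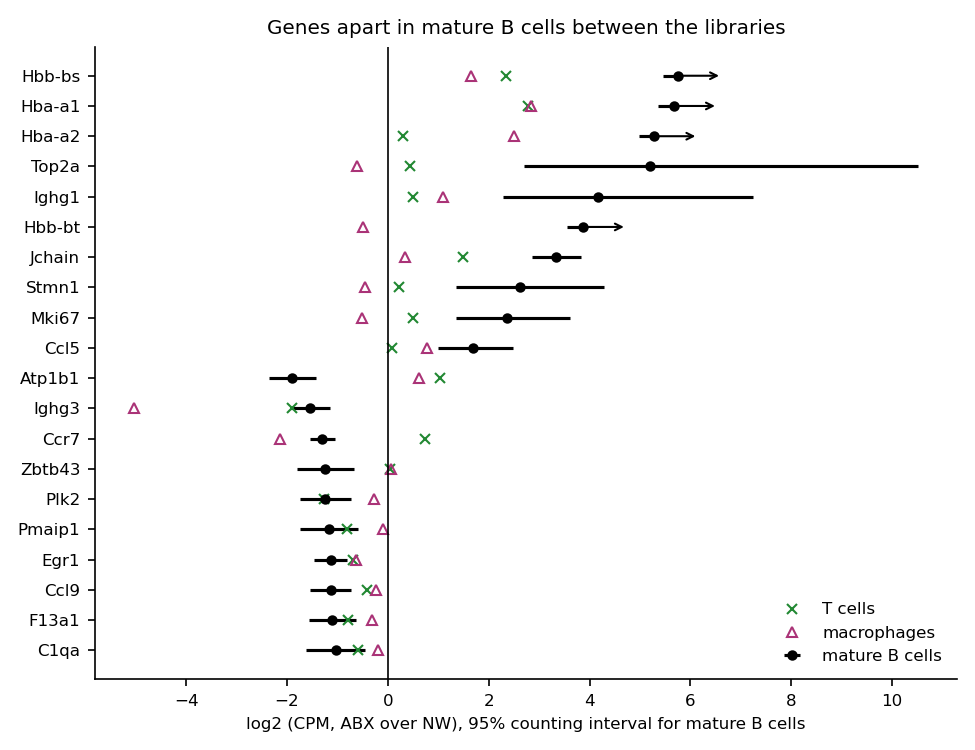
Log2 ratio of CPM in ABX over NW for the 10 genes farthest apart in each direction among mature B cells, with 95% counting intervals (black), beside the ratios in T cells (crosses) and macrophages (triangles). Arrows mark lower bounds of genes without a UMI in NW; Ccr7 was at -1.30 in mature B cells, 0.74 in T cells and -2.15 in macrophages, and Egr1 was negative in all 3 cell sets.

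On the higher side, most of the leading genes came from a few cells. The hemoglobin genes Hbb-bs, Hba-a1, Hba-a2 and Hbb-bt had no UMI among the members of NW and 1554 in ABX, of which 1538 lay in a single Ighd-zero cell with 17 Cd79a UMIs and 6824 gene UMIs. Jchain, the joining chain of secreted IgM and IgA, was at 46.9 and 471 CPM, but 773 of its 1251 UMIs in ABX were in 1 cell, and without the cell with most UMIs in each library its log2 ratio was 2.24 in place of 3.33. Jchain had a UMI in 13.6% and 20.5% of members and in 16% and 21.4% of T cells, which is no more than background. Ighg1 had 2 UMIs in NW and 118 in ABX, which lay in 33 cells, 30 of them in 1 cell (4.17, 2.29 to 7.23). Within Ighd-high cells its ratio was 1.35 (-1.61 to 6.85, on 1 and 7 UMIs), and within Ighd-zero cells it was a bound of 2.26. Ighg3 was lower in ABX, at -1.55, with 64 of its 100 UMIs of NW in 1 cell.

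Genes of cell division were higher in ABX, in few cells. Top2a, which untangles replicated DNA, had 1 UMI in NW and 120 in ABX (5.2, 2.69 to 10.51), Mki67, a proliferation marker, 8 and 135 (2.37, 1.35 to 3.61), and Stmn1, a regulator of microtubules in mitosis, 5 and 101 (2.63, 1.36 to 4.28). Members with at least 3 Top2a plus Mki67 UMIs numbered 10 in ABX, or 1.53% (0.734% to 2.79%), and 0 of 213 in NW, for which the exact upper limit is 1.72%, so the shares were not distinguishable at this number of cells. Of these 10 cells 1 was Ighd-high, 7 Ighd-low and 2 Ighd-zero. In T cells Top2a and Mki67 differed by 0.45 and 0.50, and in macrophages by -0.62 and -0.51.

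Cd180, a Toll-like receptor homologue of B cells, was the microbial sensor of 6 tested that was higher in ABX, at 173 and 262 CPM (0.60, 0.34 to 0.88), with 36.2% and 49.3% of members holding a UMI, or 13.9% and 20.3% at equal depth. It was near the limit of 1.5-fold, and in T cells the ratio was 0.49 and in macrophages -0.03. Over all tested genes 2.38% were higher in ABX, and the sensor list was not tested as a set. Nod1, a cytosolic sensor of bacterial cell walls, gave -0.63 with an interval that reaches 0 (-1.24 to 0.01). Ccr6, the receptor that draws B cells to mucosal follicles, was higher, at 28.4 and 52.8 CPM (0.90, 0.25 to 1.60) on 23 and 140 UMIs.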

How the data were processed

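The deposited tables hold UMI counts per gene and antibody and cell barcode, as whole numbers without normalization, which the authors made with the BD Rhapsody WTA pipeline version 1.8 on GRCm38 (mm10). This pipeline corrects UMIs recursively. The labels also name Seurat 3.0.1 and R 3.6.0, which were not used on these tables. Cells with at least 500 gene UMIs, 200 genes and at most 25% mitochondrial UMIs entered (12474 in NW, 12724 in ABX, with 75214427 and 60770758 gene UMIs). The 10 antibody columns were kept apart; the methods name 8 antibodies, and CD3 and NK-1.1 are the others. Members, Ighd classes and gene lists were chosen with earlier results of these data known.

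UMIs were summed over the cells of a class and divided by all gene UMIs, so that a few cells rich in RNA weigh more. Ratios carry exact conditional Poisson intervals, shares Clopper-Pearson intervals (95%, scipy 1.17.1, Python 3.11.15), and a side without UMIs was set to a floor of 3 counts. These intervals treat UMIs and cells as independent and leave out variation between mice. Genes needed 100 UMIs over the sides compared, and a ratio of 1.5-fold was the limit for counting a gene. Named genes were the 10 farthest in each direction whose interval excluded 0, ranked between Ighd ends by the smaller of the ratios of both libraries, plus members of the lists; immunoglobulin variable and mitochondrial genes were not eligible. Shares at equal depth are expected values for 1000 UMIs drawn per cell without replacement; no member was shallower. Coordinates are from GENCODE M21. The interval code was checked on simulated counts. Alternatives covered the cell filters, the rule, doublets, scaling, cell weights and the minimum of UMIs. Some listed genes and 1 antibody are not reported here.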

Additional observations from a re-analysis of the deposited data

Results flagged for a closer look

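Between Ighd-high and Ighd-zero cells, 25 genes lay beyond 1.5-fold in opposite directions in the libraries, and for 6 of them the interval of each library excludes 0. The difference between libraries itself was not tested, and the Ighd-zero class of NW was 24 cells. Irf4, a factor of activated B cells and plasma cells, was at 1.88 in NW and -0.81 in ABX on the log2 scale, on 26 against 3 and 45 against 55 UMIs. Nr4a1, an early gene of receptor signalling, was at 0.90 and -0.71, N4bp2l1 at 1.39 and -0.74, and Trp53inp1 at 1.02 and -0.61. Golga4, at -0.94 and 0.95, and Prrc2a, at -1.03 and 0.70, had the opposite pattern.

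In ABX 13 barcodes had the gene counts of a mature B cell but fell outside the limits on UMIs, genes or mitochondrial share, and were in no comparison.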

How the results depend on the processing

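The larger share of mature B cells in ABX kept its direction in all 5 alternatives, with log2 ratios of 1.52 to 1.74 against 1.59. Among the Ighd classes, thinning to 1000 UMIs raised the Ighd-zero share to 34.0% in NW and 37.0% in ABX; a limit of 10% mitochondrial UMIs gave 7.5% Ighd-zero cells in NW and 12.1% in ABX, and 46.8% Ighd-high cells in ABX; no limit on Mzb1 and Derl3, chosen after seeing the data, gave 20.3% and 24.1% Ighd-zero and 36.9% and 33.5% Ighd-high cells; and without possible doublets Ighd-high cells were 54.7% in NW and 46.1% in ABX. With the minimum at 30 UMIs, 569 genes were higher and 335 lower in Ighd-high cells, and 582 were higher and 651 lower in ABX. Scaling without immunoglobulin, mitochondrial and ribosomal genes changed the Ighd counts to 174 higher and 127 lower and those of ABX to 155 and 149. With equal weight for each cell, 197 genes were higher and 220 lower in ABX. Within Ighd-high members alone 1878 genes were tested, and 52 were higher and 79 lower. Of these, 2 and 9 were among the 121 and 190 genes called over all members. Within Ighd-zero members 1010 were tested, and 67 were higher and 56 lower, with 7 and 4 among the 121 and 190. Few calls thus recurred within a class, where fewer genes had enough UMIs to be tested. Of the 121 genes higher in ABX, 51 remained without possible doublets, and of the 190 lower ones 106. With at most 10% mitochondrial UMIs 46 and 74 remained, with 3760 genes tested. For the genes named between Ighd ends none of 308 recomputed ratios changed sign, but 17 moved beyond the counting interval; with Ighd-high at 5 or more UMIs, Zbtb32 went to -2.75 and Lgals1 to -1.17 in ABX. For those named between conditions 3 of 155 did: Ighg3 was at 0.82 without possible doublets, Ccl5 at -0.45 within Ighd-high cells, and Pmaip1 at 0.24 within Ighd-zero cells. Leaving out each gene's richest cell, an alternative chosen after seeing the data, brought Ighg3 to -0.52; the cause of these changes was otherwise not tested. No paired analysis was possible because each condition had 1 library. Depth limited genes such as Cd5, and 24 Ighd-zero cells limited every ratio in NW.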
